A study of Caenorhabditis elegans with 4 samples.

Results

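The transcripts described here are those of 9 genes of the Caenorhabditis elegans p38 mitogen-activated protein kinase pathway, taken by gene name from tables of 46881 genes: the upstream genes tir-1, nsy-1 and sek-1, the p38 kinase genes pmk-1, pmk-2 and pmk-3, the phosphatase gene vhp-1, and the transcription factor genes atf-7 and skn-1. The names were found for 9 of 9 genes, and each gene had enough reads to be tested. Hermaphrodites fed MI-OMU01, a Bacillus subtilis natto strain, were compared with hermaphrodites fed OP50, the Escherichia coli strain on which worms are usually kept in the laboratory. Both groups were wild-type Bristol N2, were 3 days old when placed on mNGM plates with one or the other bacterium, and were collected after 1 day, about 200 worms a group. Each group gave 2 libraries of whole-worm messenger RNA.

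The p38 pathway is a kinase relay that many animals use in stress and immune signalling. In C. elegans the TIR-domain protein TIR-1, the worm counterpart of SARM1, acts on the MAP kinase kinase kinase NSY-1, which acts on the MAP kinase kinase SEK-1 and through it on the p38 kinase PMK-1. Activity passes along the relay by phosphorylation, which RNA counts do not measure. PMK-1 is best known for holding up basal and infection-induced expression of antimicrobial genes in the intestine through the basic leucine zipper factor ATF-7, and for activating SKN-1, a relative of the mammalian Nrf proteins, under oxidative stress.

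The genes lie on 4 chromosomes of the WBcel235 assembly, in the coordinates of the deposited tables, and all are annotated as protein-coding. The p38 genes stand side by side on the plus strand of chromosome IV in the order pmk-3 (WBGene00004057, 8139219 to 8143151), pmk-2 (WBGene00004056, 8143500 to 8148647) and pmk-1 (WBGene00004055, 8148794 to 8151156), and are known to be transcribed together as an operon. The annotated gap is 348 bases between pmk-3 and pmk-2 and 146 bases between pmk-2 and pmk-1. The gene skn-1 (WBGene00004804) lies on the minus strand of the same chromosome, 5651087 to 5660523. Chromosome II holds nsy-1 (WBGene00003822, plus strand, 5022764 to 5029982) and vhp-1 (WBGene00006923, plus strand, 5323005 to 5340826). Chromosome III holds tir-1 (WBGene00006575, minus strand, 3869591 to 3901466) and atf-7 (WBGene00000223, minus strand, 4491627 to 4499043), and sek-1 (WBGene00004758) is on the plus strand of the X chromosome, 7816720 to 7821045. Counts were summed over the exons of a gene, which made 1561 bases for pmk-1, 1536 for pmk-2 and 5037 for nsy-1. Isoforms were therefore pooled, with 9 annotated transcripts of tir-1, 7 of skn-1 and 15 of vhp-1. Exons of nsy-1 overlapped those of the opposite-strand gene F33G12.2 by 41 bases, 0.814% of nsy-1 exon length, and the other overlapping genes had 0 reads in each library.

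The MI-OMU01 libraries held 17601286 and 24381952 counted reads and the OP50 libraries 16962082 and 17327035. Each pathway gene had between 179 and 8775 reads in a library. Whether the 2 libraries of a diet were grown as separate cultures is not stated in the labels, and the p-values therefore cover the spread between libraries, some of which may be technical. In these whole-worm samples fewer cells of a type and less RNA per cell cannot be told apart. Marker genes of epidermal cuticle (4 of 4 tested) were lower in MI-OMU01-fed worms, with 6 markers summing to 678 to 692 TMM-scaled counts per 1e6 reads (CPM) in MI-OMU01 libraries and 2313 to 2651 in OP50 libraries. Of 6 muscle markers 4 were lower, with sums of 6398 to 7401 CPM in MI-OMU01 libraries and 8207 to 9826 in OP50 libraries. Of all genes tested 15.2% were lower and 14.6% higher at an adjusted p under 0.05 by edgeR. In CPM the libraries of the diets did not overlap for 63.1% of all genes tested. Intestinal markers (2 higher and 1 lower of 5) summed to 9439 to 9851 CPM in MI-OMU01 libraries and 4679.5 to 5142 in OP50 libraries, but most of that came from asp-1. Without asp-1 the other 4 intestinal markers ran the other way, with 1120 and 1298 CPM in MI-OMU01 libraries and 1462 and 1521 CPM in OP50 libraries; of these ges-1 rose, act-5 fell, and elt-2 and ifb-2 did not pass. By edgeR 0 of 6 neuronal, 0 of 6 oocyte and 0 of 4 tested sperm markers passed the threshold, and 0 of them did at an unadjusted p of 0.05 or in DESeq2. Their sums were 405 to 450.0, 2683 to 3046 and 6.50 to 8.09 CPM in MI-OMU01 libraries, against 376 to 446, 2462 to 3224 and 5.85 to 6.13 CPM in OP50 libraries. No marker found in the files was at 0 in all libraries. The part of these shifts in the values below was not tested.

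The comparison asked whether a day on B. subtilis changed the transcripts of the pathway itself. Changes were small for every pathway gene. The p38 kinase gene pmk-2 rose 1.39-fold and the phosphatase gene vhp-1 rose 1.26-fold in MI-OMU01-fed worms, both just past an adjusted p of 0.05 in edgeR's quasi-likelihood test, and the other 7 genes did not pass. Among all 14967 genes tested 14.6% were called higher and 15.2% lower, 29.7% in either direction, so that 2 of 9 called higher and 0 of 9 called lower is near the background. For the lower direction edgeR also found 0 of the 9 at an unadjusted p of 0.05. DESeq2 called 0 of the 9 in either direction, with 2 higher and 0 lower at an unadjusted p of 0.05, and edgeR called 0 higher when OP50 replicate 1 or MI-OMU01 replicate 2 was left out. The median log2 fold change of the pathway genes was 0.18, beside 0.03 for all genes tested, and their median absolute log2 fold change was 0.18, beside 0.29. Each of the 9 stayed within 0.5 on the log2 scale, as did 67.1% of all genes tested, and 34.3% of all genes changed by more than pmk-2. In TMM-scaled CPM the groups did not overlap for 5 genes that were higher and 1 that was lower in MI-OMU01-fed worms, where 33.2% of all genes were apart upward and 29.9% downward, 63.1% together. That count depended on the scale: in transcripts per 1e6 (TPM), which take no TMM step, pmk-1 and skn-1 were also apart upward and atf-7 overlapped, giving 7 higher and 0 lower, where 50.2% of all genes were apart upward and 19.5% downward, 69.6% together.

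**Figure D1:**
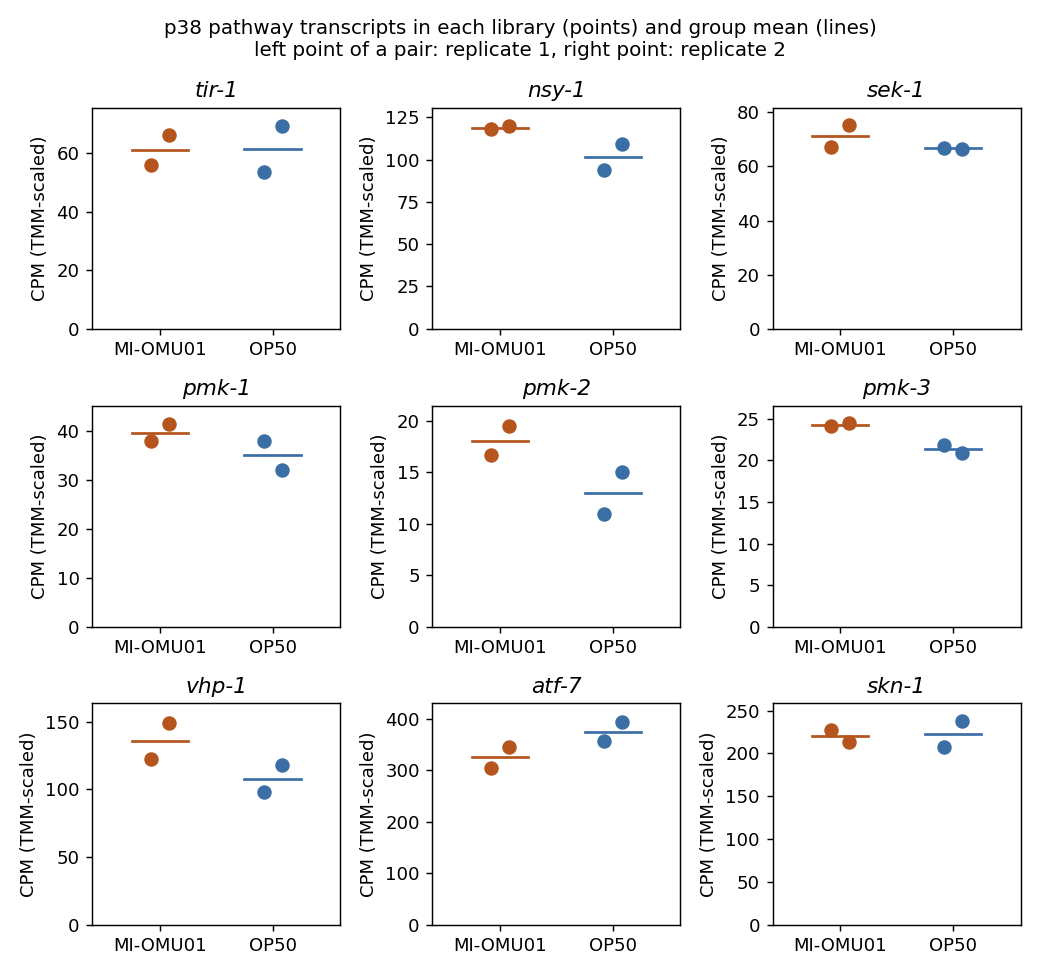
Level of each pathway transcript in CPM (vertical axes from 0) in the MI-OMU01 and OP50 libraries. Points are libraries and lines group means; the pairs of points are apart for nsy-1, sek-1, pmk-2, pmk-3, vhp-1 and atf-7 and overlap for tir-1, pmk-1 and skn-1.

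At the head of the relay, tir-1 had 55.8 and 66.1 CPM in MI-OMU01-fed worms, against 53.6 and 69.2 CPM in OP50-fed worms. The OP50 libraries lay on both sides of the MI-OMU01 libraries. With a log2 fold change of -0.01 (SE 0.13, adjusted p = 0.971 by edgeR), the 95% interval of the fold reached from 0.819 to 1.21. For nsy-1, whose product is the ASK-type kinase that TIR-1 engages, MI-OMU01 libraries had 118 and 120 CPM and OP50 libraries 94.0 and 109 CPM. Both MI-OMU01 libraries were above both OP50 libraries, and the OP50 pair differed by nearly as much as the groups did. Its log2 fold change of 0.23 (SE 0.11) had an adjusted p of 0.134, with a fold interval of 0.998 to 1.37. Leaving out OP50 replicate 1 gave 0.0811 (adjusted p = 0.659) and leaving out OP50 replicate 2 gave 0.34, past the threshold (adjusted p = 0.0146). The MAP kinase kinase gene sek-1 had 67.3 and 75.3 CPM in MI-OMU01 libraries and 66.7 and 66.6 CPM in OP50 libraries. The lower MI-OMU01 library was barely above the OP50 pair. It differed by 0.10 on the log2 scale (SE 0.11, adjusted p = 0.572), with a fold interval of 0.908 to 1.26.

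Of the p38 kinase genes, pmk-1, which codes for the kinase of the intestinal immune response, had 37.9 and 41.4 CPM in MI-OMU01-fed worms and 37.9 and 32.1 CPM in OP50-fed worms. One library of each diet stood at the same level, so the groups overlapped. The difference of 0.18 on the log2 scale (SE 0.13) did not pass (adjusted p = 0.340 by edgeR), with a fold interval of 0.937 to 1.37. The gene pmk-2, whose product acts together with PMK-1 in the nervous system, had 16.7 and 19.5 CPM in MI-OMU01 libraries, against 10.98 and 15.04 CPM in OP50 libraries. Both MI-OMU01 libraries were higher, but the nearest libraries of the groups were closer to each other than the OP50 libraries were. The log2 fold change was 0.48 (SE 0.17, adjusted p = 0.0456), with a fold interval of 1.081 to 1.80. The call for pmk-2 rested on single libraries: leaving out OP50 replicate 1 gave an adjusted p of 0.384, leaving out MI-OMU01 replicate 1 gave 0.0526 and leaving out MI-OMU01 replicate 2 gave 0.343, and DESeq2 with all libraries gave 0.128.

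The third kinase gene, pmk-3, whose product works with the kinases DLK-1 and MKK-4 in axon regrowth, had 24.1 and 24.4 CPM in MI-OMU01-fed worms and 21.8 and 20.9 CPM in OP50-fed worms. Here the libraries of each diet lay close together and the groups were apart. The log2 fold change of 0.18 (SE 0.14) did not pass the edgeR test (adjusted p = 0.371), and the fold interval was 0.926 to 1.39. The fold intervals of the operon's genes overlapped.

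VHP-1 is a dual-specificity phosphatase that removes the activating phosphates from PMK-1 and from the JNK-like kinase KGB-1. Its gene had 123 and 149 CPM in MI-OMU01-fed worms, against 97.8 and 118 CPM in OP50-fed worms. The lower MI-OMU01 library was only slightly above the higher OP50 library, and replicate 2 was the higher library on both diets. The log2 fold change was 0.33 (SE 0.12, adjusted p = 0.0453 by edgeR), with a fold interval of 1.06 to 1.498. Leaving out OP50 replicate 1 gave an adjusted p of 0.316, leaving out MI-OMU01 replicate 2 gave 0.561, and DESeq2 gave 0.125.

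The transcription factor genes did not pass the test in either direction. For atf-7, whose product PMK-1 phosphorylates, MI-OMU01 libraries had 304 and 345 CPM and OP50 libraries 356 and 393 CPM. On this scale both MI-OMU01 libraries were below both OP50 libraries, which was the case for no other of the 9 genes, while in TPM the libraries of atf-7 overlapped. Its log2 fold change of -0.21 (SE 0.11) missed the threshold (adjusted p = 0.170 by edgeR), with a fold interval of 0.741 to 1.01. Leaving out OP50 replicate 1 gave -0.32 and an adjusted p of 0.0166. The gene skn-1 had 228 and 213 CPM in MI-OMU01-fed worms and 207 and 238 CPM in OP50-fed worms, and the MI-OMU01 pair lay between the OP50 libraries. Its log2 fold change was -0.01 (SE 0.11, adjusted p = 0.949), with a fold interval of 0.849 to 1.16, which leaves out a change of 0.5 on the log2 scale in either direction, as the intervals of tir-1, nsy-1, sek-1, pmk-1, pmk-3 and atf-7 did.

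**Figure D2:**
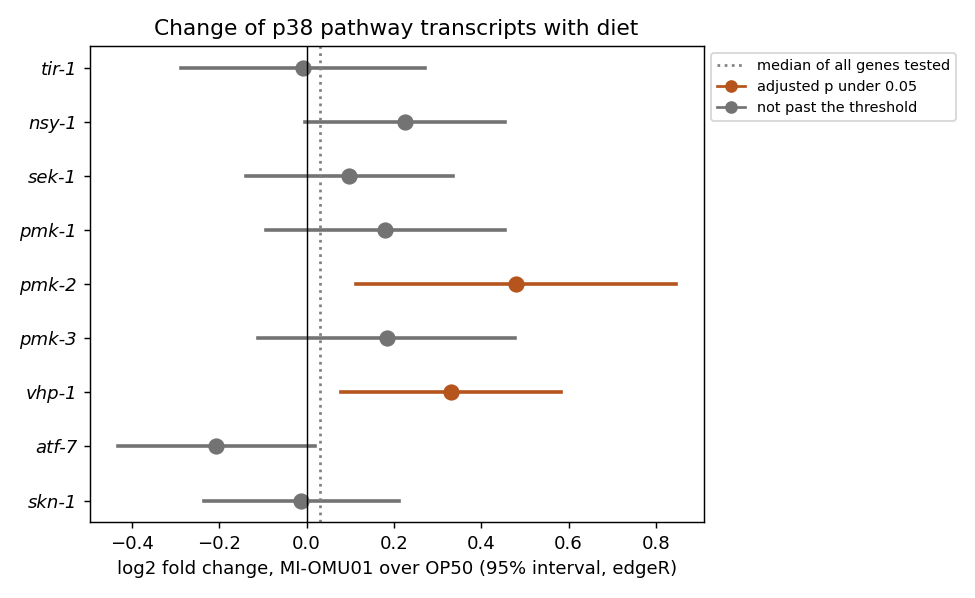
Log2 fold change of each pathway transcript (horizontal axis, MI-OMU01 over OP50) with its 95% interval from edgeR; the dotted line is the median of all genes tested. Only the intervals of pmk-2 (log2 fold change 0.48) and vhp-1 (0.33) lie wholly above 0.

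The scaling of the libraries mattered because the changes were small. When raw totals served as library sizes, the median log2 fold change of all genes was 0.16 in place of 0.03 and 65.3% of the calls were higher, against 48.95% with TMM scaling. On that scale 3 pathway genes were called higher: pmk-2 (log2 fold change 0.61), vhp-1 (0.46) and nsy-1 (0.36, adjusted p = 0.0159). Relative to the shift of all genes these are close to the TMM values. With DESeq2 size factors in edgeR pmk-2 and vhp-1 missed the threshold (adjusted p = 0.0628 and 0.0634) at log2 fold changes of 0.46 and 0.31.

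**Figure D3:**
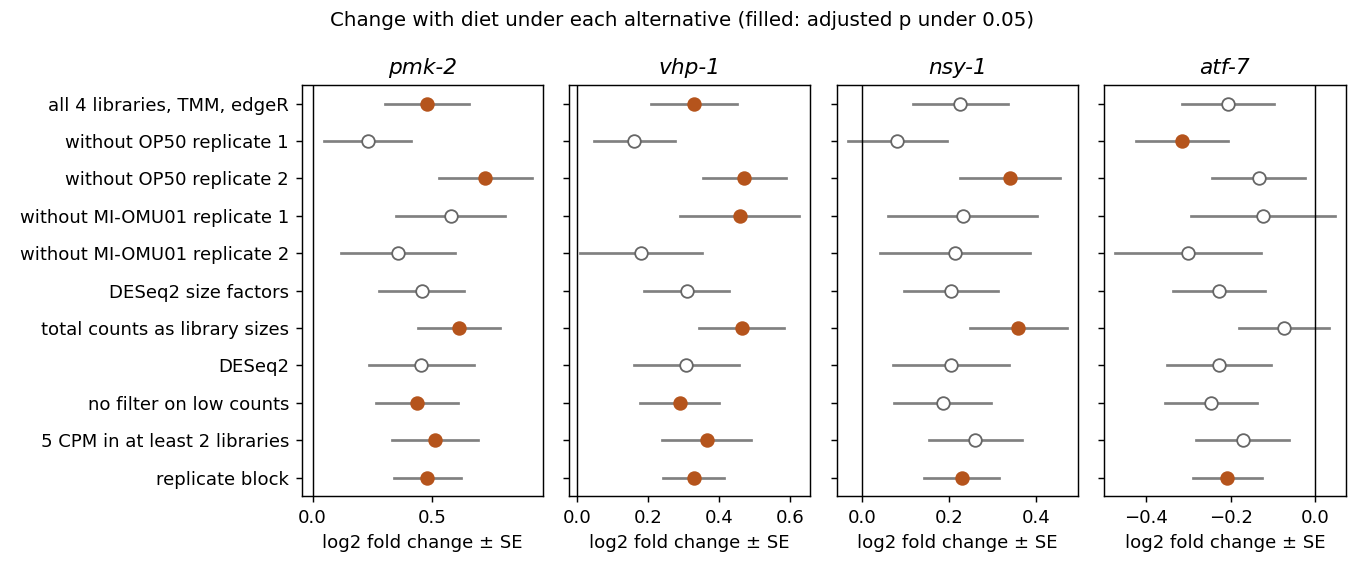
Log2 fold change (horizontal axes, MI-OMU01 over OP50, bars SE) of pmk-2, vhp-1, nsy-1 and atf-7 with all 4 libraries and under each alternative, filled where the adjusted p was under 0.05. The direction is the same throughout for these 4 genes, while the calls of pmk-2 and vhp-1 end when OP50 replicate 1 or MI-OMU01 replicate 2 is left out.

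Levels can be compared between genes only per length, so TPM were used. TPM divide reads by exon length and take no TMM step. On this scale 50.2% of all genes tested were apart upward in MI-OMU01-fed worms and 19.5% downward. The TPM below therefore serve to compare genes, and the diets are compared by the TMM-scaled fold changes above. The downstream factor atf-7 was the most abundant, at 171 and 190.2 TPM in MI-OMU01-fed worms and 177 and 191 TPM in OP50-fed worms, above 94.9% of the genes tested when averaged over the 4 libraries. It was followed by skn-1, with 101 and 93.1 TPM in MI-OMU01 libraries and 81.6 and 91.4 TPM in OP50 libraries. Next came vhp-1, with 60.4 ± 7.55 TPM in MI-OMU01-fed worms and 42.6 ± 4.94 TPM in OP50-fed worms (SD, n = 2 each), and sek-1, with 49.4 ± 3.33 TPM in MI-OMU01-fed worms and 40.9 ± 0.708 TPM in OP50-fed worms. The ranges of vhp-1 and sek-1 overlapped.

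In the lower part of the order, pmk-1 averaged 36.6 ± 1.83 TPM in MI-OMU01-fed worms and 28.6 ± 3.84 TPM in OP50-fed worms (SD, n = 2 each). The kinase gene nsy-1 averaged 34.01 ± 0.0761 TPM in MI-OMU01-fed worms and 25.7 ± 2.34 TPM in OP50-fed worms. Its product feeds PMK-1, and the TPM ranges of both genes overlapped. The adaptor gene tir-1 averaged 19.2 ± 2.06 TPM in MI-OMU01-fed worms and 17.1 ± 2.81 TPM in OP50-fed worms, and pmk-3 averaged 18.8 ± 0.0222 TPM in MI-OMU01-fed worms and 14.6 ± 0.705 TPM in OP50-fed worms. The least abundant was pmk-2, at 16.95 ± 1.65 TPM in MI-OMU01-fed worms and 10.8 ± 2.20 TPM in OP50-fed worms. It was below pmk-3 in each of the 4 libraries although their ranges over all libraries overlapped, as did those of tir-1 and pmk-3. The ranges over all libraries did not overlap between atf-7 and skn-1, skn-1 and vhp-1, sek-1 and pmk-1, or nsy-1 and tir-1.

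**Figure D4:**
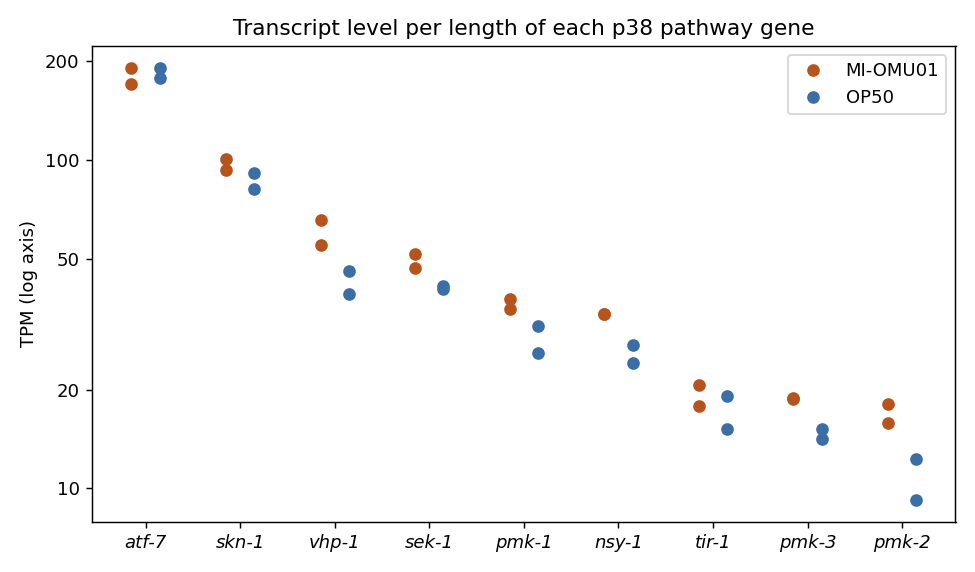
TPM of each pathway gene (log axis), ordered by the mean over 4 libraries; each point is a library, MI-OMU01 on the left and OP50 on the right of each gene. The levels run from atf-7, near 171 to 191 TPM, down to pmk-2, near 9.22 to 18.1 TPM.

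The make-up of the p38 kinase transcripts within a library does not depend on how libraries are scaled. Per length, pmk-1 made 50.6% ± 0.117 of the p38 kinase transcripts in MI-OMU01-fed worms and 52.8% ± 4.81 in OP50-fed worms (SD, n = 2 each). The share of pmk-3 was 26.0% ± 1.28 in MI-OMU01-fed worms and 27.1% ± 0.132 in OP50-fed worms. For pmk-2 it was 23.4% ± 1.16 in MI-OMU01-fed worms and 20.1% ± 4.94 in OP50-fed worms, a difference of 3.37 percentage points that was smaller than the OP50 spread. Of the raw p38 kinase reads, pmk-2 took 21.2% (95% exact binomial interval 19.1 to 23.4) and 22.8% (21.1 to 24.7) in the MI-OMU01 libraries, and 15.5% (13.5 to 17.7) and 22.1% (19.7 to 24.7) in the OP50 libraries. The interval of OP50 replicate 1 lay below those of the other 3 libraries, which overlapped, and the difference per length turned on the OP50 library kept: it was -0.125 percentage points without OP50 replicate 1 and 6.87 without OP50 replicate 2. An exact permutation test of 2 libraries against 2 could not reach 0.05, and none was run. The ratio of vhp-1 to pmk-1 per length was 1.56 and 1.74 in MI-OMU01 libraries, against 1.25 and 1.78 in OP50 libraries, which overlapped. The ratio of atf-7 to pmk-1 was 4.85 and 5.02 in MI-OMU01 libraries, below 5.66 and 7.39 in OP50 libraries. The OP50 libraries differed from each other by more than the nearest libraries of the groups did. The ratios were not tested, and 69.6% of all genes tested were themselves apart between the diets in TPM.

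Genes listed as possible inputs of the pathway had log2 fold changes between -0.60 and 0.54. Of 14 tested receptors, G proteins, lipases, kinases and other genes in this list, 2 rose and 2 fell. That is near the shares of all genes tested, 14.6% higher and 15.2% lower. The median of the list was 0.10 on the log2 scale, beside 0.03 for all genes tested. Not every listed gene is an established input of the p38 relay. The I-kappa-B-like gene ikb-1 had 64.3 and 70.5 CPM in MI-OMU01-fed worms and 43.6 and 49.5 CPM in OP50-fed worms (log2 fold change 0.54, adjusted p = 0.00186 by edgeR). The receptor gene dcar-1, which acts in the epidermal peptide response, rose 1.35-fold (adjusted p = 0.0125). The G protein alpha subunit gene gpa-12 of the same response fell 1.51-fold, a log2 fold change of -0.60 just past the threshold (adjusted p = 0.0486). Without OP50 replicate 2 the log2 fold change of gpa-12 was -0.26 (adjusted p = 0.487), and its call also ended without MI-OMU01 replicate 1 (0.157), without MI-OMU01 replicate 2 (0.114), in DESeq2 (0.106), with raw totals (0.106) and at 5 CPM (0.0772). The scaffold gene rack-1 fell 1.37-fold (adjusted p = 0.00452). The Tribbles-like kinase gene nipi-3 had 123 and 145 CPM in MI-OMU01 libraries and 109 and 140.0 CPM in OP50 libraries (adjusted p = 0.585). The inputs called higher were 1 when OP50 replicate 1 was left out, 5 for OP50 replicate 2, 1 for MI-OMU01 replicate 1 and 0 for MI-OMU01 replicate 2. Those called lower were 1 when OP50 replicate 2 or MI-OMU01 replicate 2 was left out and 0 for MI-OMU01 replicate 1. Of the 4 called inputs 0 stayed past the threshold in each of the 4 fits with 1 library left out.

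Among 19 genes of the other MAP kinase modules 6 rose and 0 fell by edgeR, beside 14.6% and 15.2% of all genes tested. The list's median was 0.12 on the log2 scale. None of these genes was lower at an unadjusted p of 0.05 or in DESeq2. The JNK-like kinase gene kgb-2 had 8.08 and 7.11 CPM in MI-OMU01-fed worms, against 1.84 and 2.25 CPM in OP50-fed worms, a 3.69-fold rise (adjusted p = 8.74e-06), larger than the change of any of the 9 pathway genes. Its relative kgb-1, whose product VHP-1 also inactivates, had 32.7 and 43.4 CPM in MI-OMU01 libraries and 35.0 and 37.5 CPM in OP50 libraries (adjusted p = 0.747). In the module that leads to PMK-3, dlk-1 rose 1.29-fold (adjusted p = 0.0227) and mak-2, a kinase gene downstream of it, 1.25-fold (adjusted p = 0.0395), while mkk-4 between them differed by 0.02 on the log2 scale (SE 0.16, adjusted p = 0.943). The Raf scaffold gene ksr-1 rose 1.33-fold (adjusted p = 0.0310), and the ERK-type kinase gene mpk-1 differed by 0.13 on the log2 scale (adjusted p = 0.441). The count of higher genes was 1 in DESeq2, 1 when OP50 replicate 1 or MI-OMU01 replicate 2 was left out, and 2 for MI-OMU01 replicate 1. Of the 6 called genes 1, kgb-2, passed whichever library was left out.

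Changes were larger among the intestinal genes that need PMK-1. This list, like the other related lists, was written with earlier results of these data known. Of 10 tested, 7 fell and 2 rose, beside 15.2% and 14.6% of all genes tested. The part of PMK-1 in these changes was not tested. The list's median was -1.74 on the log2 scale. The small secreted-protein gene T24B8.5, a common reporter of PMK-1 activity, had 1.25 and 1.02 CPM in MI-OMU01-fed worms and 51.4 and 50.2 CPM in OP50-fed worms, a 45.1-fold fall (adjusted p = 7.25e-14 by edgeR). C17H12.8 had 13.8 and 13.9 CPM in MI-OMU01 libraries and 80.6 and 65.3 CPM in OP50 libraries. The infection response gene irg-5 fell 4.05-fold from few reads (2 and 13 in MI-OMU01 libraries, 27 and 18 in OP50 libraries), and leaving out OP50 replicate 1 or MI-OMU01 replicate 1 ended its call (adjusted p = 0.0759 and 0.115). In the other direction irg-4 rose 1.67-fold (adjusted p = 0.0107) and the lectin gene clec-67 1.30-fold (adjusted p = 0.0488). Leaving out OP50 replicate 2 left 1 higher gene and leaving out MI-OMU01 replicate 2 left 0, while 6 of the 7 falls passed whichever library was left out.

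In the epidermis p38 signalling is known to induce the nlp-29 cluster of antimicrobial peptide genes. Of 6 cluster genes 3 rose and 0 fell by edgeR, with 0 lower at an unadjusted p of 0.05 and 0 in DESeq2, and 1 lower without OP50 replicate 2. Of all genes tested 14.6% were called higher and 15.2% lower by edgeR. The peptide gene nlp-34 had 3.63 and 4.83 CPM in MI-OMU01-fed worms, against 1.35 and 1.16 CPM in OP50-fed worms (3.39-fold, adjusted p = 0.000198). The gene nlp-29 had 13.3 and 13.1 CPM in MI-OMU01 libraries and 7.85 and 7.43 CPM in OP50 libraries, and nlp-31 rose 1.72-fold (adjusted p = 0.00135). The epidermal cuticle markers were 4 of 4 lower in the same libraries, opposite in direction to the peptide genes that rose. Their part in the peptide values was not tested.

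Of 8 tested SKN-1 targets 3 fell and 0 rose by edgeR, beside 15.2% and 14.6% of all genes tested. The list's median was -0.34 on the log2 scale, and 0 of the targets were higher at an unadjusted p of 0.05 or in DESeq2. The glutathione S-transferase gene gst-4, a widely used SKN-1 reporter, had 16.5 and 12.1 CPM in MI-OMU01-fed worms, against 35.6 and 40.8 CPM in OP50-fed worms (adjusted p = 1.01e-06). Its relative gst-10 fell 3.19-fold and the nitrilase gene nit-1 fell 2.16-fold. The glutathione synthesis gene gcs-1, another SKN-1 target, had 88.7 and 79.4 CPM in MI-OMU01 libraries and 101 and 91.6 CPM in OP50 libraries (adjusted p = 0.213). Among 11 genes that regulate SKN-1, 3 rose and 0 fell by edgeR, beside 14.6% and 15.2% of all genes tested. Their median was 0.17 on the log2 scale, and 0 of them were lower at an unadjusted p of 0.05 or in DESeq2. The WD40-repeat gene wdr-23, whose product marks SKN-1 for degradation, had 186 and 202 CPM in MI-OMU01-fed worms and 156 and 160.2 CPM in OP50-fed worms, a 1.23-fold rise (adjusted p = 0.0362). The kinase gene nekl-2 rose 1.44-fold (adjusted p = 0.0183) and the Mediator subunit gene mdt-15 rose 1.31-fold (adjusted p = 0.00983). The higher count was 1 when OP50 replicate 1 was left out, 0 for either MI-OMU01 library and 1 in DESeq2, and the adjusted p of wdr-23 was 0.404 when MI-OMU01 replicate 2 was left out.

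Of 11 other transcription factor genes used in worm immunity or stress 4 rose and 1 fell, beside 14.6% and 15.2% of all genes tested. The list's median was 0.21 on the log2 scale. The bZIP gene zip-1, known from the intracellular pathogen response, had 36.0 and 38.4 CPM in MI-OMU01-fed worms and 21.2 and 24.7 CPM in OP50-fed worms (log2 fold change 0.70, adjusted p = 0.000593 by edgeR). The STAT-like gene sta-2 rose 1.49-fold (adjusted p = 0.0121), and hlh-30, which codes for the worm TFEB, rose 1.33-fold (adjusted p = 0.0101). The FOXO gene daf-16 rose 1.31-fold (adjusted p = 0.0119, and 0.202 without MI-OMU01 replicate 2). The mitochondrial stress factor gene atfs-1 fell 1.32-fold (adjusted p = 0.00976, and 0.246 without MI-OMU01 replicate 1). The bZIP gene zip-2, which acts alongside the p38 pathway in infection, had 221 and 262 CPM in MI-OMU01 libraries and 234 and 300.3 CPM in OP50 libraries (adjusted p = 0.417). Leaving out OP50 replicate 1 gave 2 higher and 2 lower genes, leaving out MI-OMU01 replicate 2 gave 1 higher gene, and leaving out MI-OMU01 replicate 1 gave 0 lower genes. Of the 4 called higher 1, zip-1, passed whichever library was left out.

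**Figure D5:**
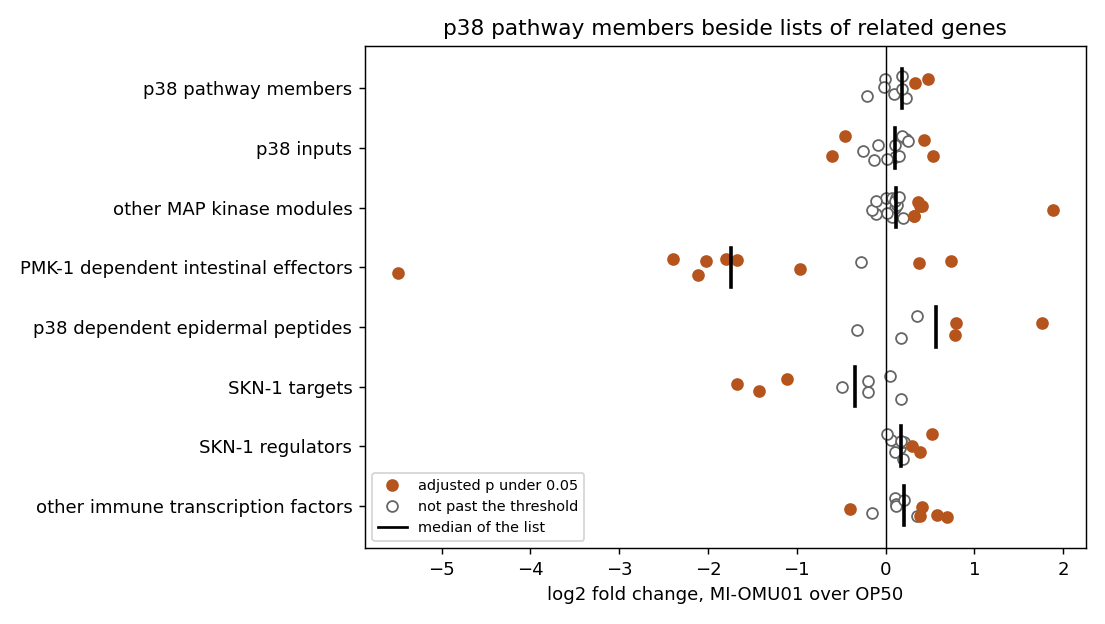
Log2 fold change (horizontal axis, MI-OMU01 over OP50) of the 9 pathway genes and of the genes tested in each related list, filled where the adjusted p was under 0.05, with a bar at each list's median. The pathway genes stay within 0.5 of 0. The listed inputs run from -0.60 to 0.54 and the SKN-1 regulators from 0.01 to 0.52. The PMK-1-dependent intestinal genes reach a log2 fold change of -5.50 (T24B8.5) and have a median of -1.74. All the related lists were written with earlier results of these data known.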

How the data were processed

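Poly(A) RNA of whole worms was sequenced in 4 libraries. Each deposited file gives the raw read counts of 1 library as whole numbers, gene by gene. The submitters' processing notes name STAR 2.7.2b, featureCounts 1.6.4, cutadapt 2.7, Trimmomatic 0.39 and Trim Galore 0.6.5, and the builds ce11 and WBcel235. How these were set, whether counting used strand and what was done with multi-mapped reads is not given in the sources used, so reads of overlapping genes may be mixed. Coordinates and exon lengths come from the files, and gene types from Ensembl release 115, which matched 46794 of 46881 genes.

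Groups came from the sample titles. Low genes were removed by filterByExpr (at least 10 reads in enough libraries and 15 in all), TMM scaling was applied (factors 1.05 and 1.04 for MI-OMU01, 0.962 and 0.948 for OP50), and then a robust quasi-likelihood model of edgeR 4.0.16 (R 4.3.3) was fitted with the diet as its only term. P-values were adjusted by Benjamini-Hochberg over 14967 genes, with a threshold of 0.05. SE is the log2 fold change over the square root of F, and 95% intervals use the model's degrees of freedom. The code was tested on simulated data. CPM are TMM-scaled and were computed here, as were TPM, which divide counts by the exon length. Reads carry no molecular identifiers, so binomial intervals cover counting error only. Counts of the libraries of a diet differed with a chi-square of 9.38 (MI-OMU01) and 10.7 (OP50) per gene, above sampling noise, and each library was counted as 1 sample.

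The pathway genes and the related lists were chosen with earlier results of these data known. Named are the 9 pathway genes, up to 2 of the largest called rises and falls in each related list, and wdr-23, nipi-3, dlk-1, mkk-4, kgb-1, mpk-1, T24B8.5, irg-4, irg-5, gst-4, gcs-1, zip-2 and daf-16. The genes mak-2, nlp-27, nlp-28, nlp-30, nlp-31, nit-1 and hlh-30 were named after their values were seen. No gene was named by likeness of pattern, because 4 libraries are too few. Of the list names, trf-1, irg-6 and gst-30 were too low to be tested, as were the markers bli-1, bli-2, spe-42 and peel-1. The intestinal marker opt-2 was not found by name among the counted genes. Alternatives were edgeR with size factors from DESeq2 1.42.0 or with raw totals, DESeq2 itself, no low-count filter, a stricter one (5 CPM in at least 2 libraries), leaving out each library in turn, and a replicate block.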

Additional observations from a re-analysis of the deposited data

How the results depend on the processing

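The direction of pmk-1, pmk-2, pmk-3, sek-1, nsy-1, vhp-1 and atf-7 was the same under all 10 alternatives, with log2 fold changes of 0.23 to 0.72 for pmk-2 and 0.16 to 0.47 for vhp-1, past the threshold in 5 and 6 of them. A left-out library leaves 1 sample in its group, which is then assumed to vary like the other group.

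With DESeq2 size factors 0 pathway genes and 1 PMK-1-dependent intestinal gene were higher, and mkk-4 was at -0.000166. With total counts as library sizes 4 inputs and 5 SKN-1 regulators were higher, 1 input and 0 other transcription factors lower, and tir-1 and skn-1 were at 0.12 and 0.12 on the log2 scale. With DESeq2 0 pathway genes, 1 gene of the other MAP kinase modules, 1 intestinal gene and 1 SKN-1 regulator were higher and 1 input lower, with mkk-4 at -0.000834. With no filter 3 genes of the other modules and 1 intestinal gene were higher, with mkk-4 at -0.0197. At 5 CPM 1 input was lower, and tir-1 and skn-1 were at 0.0259 and 0.0216. By CPM, with no division by length, tir-1, nsy-1, sek-1 and pmk-1 ranked 6, 4, 5 and 7. In 2 checks chosen after seeing the data, 0 pathway genes were apart downward in TPM, and the log2 ratio of the intestinal marker sums was -0.30 without asp-1 (0.97 with it).

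With 1 library left out, 1262 to 2297 genes were higher and 1505 to 2563 lower. Pathway genes called higher numbered 0 to 3 and lower 0 to 1. Inputs called higher numbered 0 to 5 and lower 0 to 3, genes of the other modules called higher 1 to 7, intestinal genes called higher 0 to 2, epidermal peptides called lower 0 to 1, SKN-1 regulators called higher 0 to 4, and other transcription factors called higher 1 to 4 and lower 0 to 2. Log2 fold changes ran from -0.22 to 0.19 for tir-1, -0.15 to 0.0900 for skn-1, -0.10 to 0.29 for nipi-3, -0.16 to 0.18 for mkk-4, -0.15 to 0.26 for kgb-1 and -0.36 to 0.0422 for zip-2. The share difference of pmk-2 ran from -0.125 to 6.87 percentage points. The cause of these changes was not tested.

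Replicate numbers are shared by the diets, and deviations of same-numbered libraries correlated at 0.211, but no label says that a number marks a shared batch. With a replicate block 5807 genes passed (4449 without), 2890 of them higher and 2917 lower, with 3 pathway genes higher and 1 lower; nsy-1 and atf-7 then passed (adjusted p = 0.0241 and 0.0340). Depth limits pmk-2 most, with 179 reads in its lowest library.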
